A study of Mus musculus with 12 samples.

Results

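10 genes that mark the hepatocytes around the central vein of the mouse liver lobule were followed across 4 diets. The 10 genes, *Glul*, *Oat*, *Slc1a2*, *Rhbg*, *Cyp2e1*, *Cyp1a2*, *Lgr5*, *Rnf43*, *Axin2* and *Tbx3*, were taken by symbol from a table of 54532 genes, and each matched 1 row. The livers came from 12 male C57BL/6J mice, 3 per group, that entered the study at 5 weeks of age and were fed for 26 weeks. ND-fed mice received a normal diet, control mice a high-fat diet, HYA-treated mice the high-fat diet with 1% HYA, and LA-treated mice the high-fat diet with 1% LA. HYA is 10-hydroxy-cis-12-octadecenoic acid, which lactic acid bacteria of the gut form from linoleic acid (LA) by adding water, so that LA given at the same dose is its parent compound. The control, HYA and LA groups share the high-fat diet. The comparisons ask what the high-fat diet changed, and whether either fatty acid changed it further.

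Blood enters the liver lobule near the portal vein and leaves through the central vein, and hepatocytes along this path carry out different tasks. Endothelial cells of the central vein release Wnt ligands and R-spondins, which keep β-catenin signalling high in the neighbouring hepatocytes. Those cells take up the ammonia that the urea cycle of upstream hepatocytes has left and fix it in glutamine, and they hold much of the cytochrome P450 of the liver. *Glul* (glutamine synthetase), *Oat* (ornithine aminotransferase), *Slc1a2* (a glutamate transporter) and *Rhbg* (an ammonia transporter) serve the first task. *Cyp2e1* and *Cyp1a2* encode P450 enzymes of drug and toxin oxidation. *Lgr5* (an R-spondin receptor), *Rnf43* (a ubiquitin ligase that removes Wnt receptors) and *Axin2* (a scaffold of β-catenin destruction) are targets of Wnt signalling that also tune it, and *Tbx3* encodes a transcription factor.

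Abundance is given in FPKM, the fragments counted on a gene divided by its length in kilobases and by the size of the library. Each library held 17169064 to 25220880 fragments on genes. Groups were compared on log2(FPKM + 1) with limma, all 12 mice in 1 fit. The fit took the 11083 genes whose mean reached 1 FPKM, and a call required an adjusted p under 0.05 by the method of Benjamini and Hochberg. All 10 genes were among those tested, with *Lgr5* (mean 1.06 FPKM) and *Rhbg* (1.12 FPKM) only just above the filter. Because 1 is added before the logarithm, fold changes of scarce transcripts come out too small. The labels do not say whether the mice of a group shared a cage. The p-values set a difference between groups against a spread between mice that was estimated over all 4 groups. In bulk liver RNA, fewer cells of a type and less RNA per cell cannot be told apart.

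The 300 bases around the start of transcription are shown for *Cyp2e1* and *Cyp1a2*, which had the largest differences among the 10 in control against ND-fed mice, and for *Glul*, which differed in the opposite direction in that comparison. They were read from RefSeq on GRCm38.p6 and run from 250 bases before to 50 bases after the start, on the strand of the gene. *Cyp2e1* lies at chr7:140763569-140763868 on the plus strand, *Cyp1a2* at chr9:57683606-57683905 on the minus strand and *Glul* at chr1:153899679-153899978 on the plus strand. Capitals mark a word bound by TCF/LEF, the factors through which β-catenin acts (CTTTGAA or CTTTGAT or CTTTGTA or CTTTGTT on either strand).
Cyp2e1: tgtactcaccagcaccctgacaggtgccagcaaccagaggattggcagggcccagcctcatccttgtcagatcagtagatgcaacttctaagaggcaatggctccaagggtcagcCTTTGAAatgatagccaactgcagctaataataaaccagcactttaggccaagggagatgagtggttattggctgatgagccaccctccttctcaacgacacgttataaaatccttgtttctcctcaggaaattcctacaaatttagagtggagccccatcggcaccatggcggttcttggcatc
Cyp1a2: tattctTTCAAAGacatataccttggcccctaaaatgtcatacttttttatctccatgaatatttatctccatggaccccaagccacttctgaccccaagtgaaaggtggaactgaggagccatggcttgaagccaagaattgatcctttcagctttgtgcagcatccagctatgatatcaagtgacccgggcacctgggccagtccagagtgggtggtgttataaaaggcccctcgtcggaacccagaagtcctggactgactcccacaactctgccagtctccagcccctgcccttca
Glul: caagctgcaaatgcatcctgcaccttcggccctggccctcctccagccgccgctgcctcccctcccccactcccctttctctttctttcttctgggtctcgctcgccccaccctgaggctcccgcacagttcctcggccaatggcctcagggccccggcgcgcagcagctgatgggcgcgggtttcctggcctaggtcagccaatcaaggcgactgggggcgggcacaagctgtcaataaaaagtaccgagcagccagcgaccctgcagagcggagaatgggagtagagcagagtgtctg
A TCF/LEF word stood in the windows of *Cyp2e1*, *Cyp1a2* and *Slc1a2*, among the 7 genes of the set that had a window, and 16.9% of all 32851 promoters held such a word. The *Slc1a2* window begins at a start site 47779 bases inside the annotated gene. Neither *Glul*, *Oat*, *Rnf43* nor *Axin2* had the word in these windows. The 5 letters GCGTG, the core to which the aryl hydrocarbon receptor binds, were found on either strand only in *Rnf43* of the 7 genes and in 32.4% of all promoters.

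**Figure D1:**
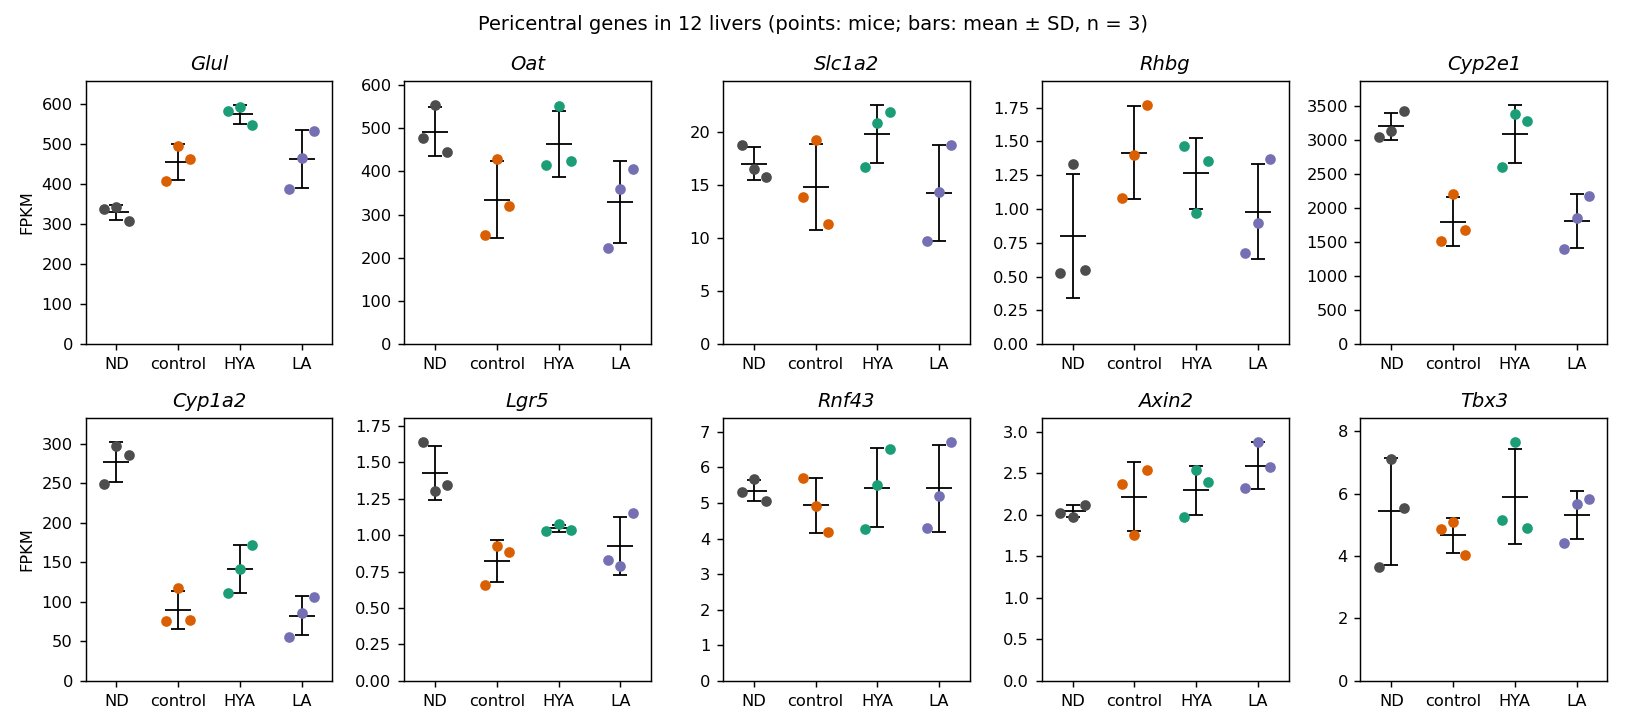
Abundance of the 10 genes in FPKM (vertical axis, from 0, with its own scale in each panel) in the 4 groups. Points are single mice and bars are means ± SD of 3 mice. *Cyp2e1* and *Cyp1a2* stand lower in control and LA-treated than in ND-fed mice, *Glul* stands highest in HYA-treated mice, and the points of *Axin2*, *Rnf43* and *Tbx3* intermingle in most groups.

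*Glul* mRNA was more abundant in each high-fat group than in ND-fed mice, and most abundant in HYA-treated mice. The gene lies at chr1:153899944-153909723. ND-fed mice had 336, 343 and 309 FPKM, and control mice had 406, 493 and 463 FPKM. HYA-treated mice had 581, 592 and 547 FPKM, and LA-treated mice had 388, 464 and 532 FPKM. Every HYA-treated mouse was above every other mouse, and the control and LA-treated mice intermingled. *Glul* rose by 0.46 ± 0.11 (log2 fold change ± SE) in control against ND-fed mice (adjusted p = 0.00813), and the means were 454 ± 44.4 and 329 ± 18.4 FPKM (SD, n = 3). It also rose in HYA-treated against ND-fed mice (0.80, adjusted p = 0.000741) and in LA-treated against ND-fed mice (0.47, adjusted p = 0.00765). The difference of 0.34 between HYA-treated and control mice (95% interval 0.10 to 0.58) did not pass the test (adjusted p = 0.122).

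*Oat*, which links ornithine to glutamate, had lower means in control and LA-treated than in ND-fed mice. The gene lies at chr7:132557478-132576398, on the same strand as and within the annotated span of *Fgfr2*, whose mean was 4.81 FPKM. ND-fed mice had 478, 554 and 445 FPKM, and control mice had 252, 429 and 321 FPKM. HYA-treated mice had 414, 550 and 423 FPKM, and LA-treated mice had 223, 359 and 406 FPKM. All control and all LA-treated mice were below all ND-fed mice, and the ranges of HYA-treated and ND-fed mice overlapped. None of the differences passed the test. The log2 fold change in control against ND-fed mice was -0.59 (adjusted p = 0.0745), and without control mouse 2 the gene passed (adjusted p = 0.0296).

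The 2 transporters were less abundant. *Slc1a2* (chr2:102658659-102790784) spanned 15.8 to 18.8 FPKM in ND-fed mice, 11.3 to 19.3 in control mice, 16.7 to 21.9 with HYA and 9.74 to 18.8 with LA. These ranges overlapped in every comparison, and none passed the test. *Rhbg* (chr3:88242874-88254709) rested on 18 to 71 fragments per mouse, with 0.529, 1.33 and 0.546 FPKM in ND-fed and 1.08, 1.40 and 1.77 FPKM in control mice. It passed the filter of 1 FPKM through the 9 mice on a high-fat diet (mean 1.22 FPKM, against 0.802 in ND-fed mice). ND mouse 2 lay among the control mice, and the log2 fold change of 0.44 did not pass the test (adjusted p = 0.0888). Without ND mouse 2 it was 0.64 and passed (adjusted p = 0.0174), as it did with all mice in TPM (adjusted p = 0.0312).

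*Cyp2e1* mRNA fell on the high-fat diet and was more abundant in the livers of mice that also received HYA. *Cyp2e1* lies at chr7:140763739-140774987, and was among the 25 most abundant genes in each group. ND-fed mice had 3043, 3125 and 3417 FPKM, and control mice had 1520, 2203 and 1677 FPKM. HYA-treated mice had 2602, 3381 and 3278 FPKM, and LA-treated mice had 1397, 1858 and 2175 FPKM. Every control and LA-treated mouse was below every ND-fed and HYA-treated mouse. The mean in control mice was 56.3% of that in ND-fed mice (log2 fold change -0.84 ± 0.18 SE, adjusted p = 0.00385), and LA-treated mice likewise fell against ND-fed mice (-0.84, adjusted p = 0.00451). In HYA-treated mice the gene rose by 0.79 ± 0.18 against control mice (95% interval 0.40 to 1.17, adjusted p = 0.0452). The difference between HYA-treated and ND-fed mice was -0.06, with an interval of -0.44 to 0.33. The call of HYA against control was narrow. It was lost without control mouse 1 (adjusted p = 0.181), control mouse 3 (0.115), HYA mouse 1 (0.0561), HYA mouse 2 (0.173) or HYA mouse 3 (0.116), without the filter on low values (0.121) and in a fit of those 2 groups alone (0.147), and the log2 fold change stayed above 0 in each of them.

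*Cyp1a2* mRNA fell on the high-fat diet with or without either fatty acid. The gene lies at chr9:57676937-57683703, and its neighbour *Cyp1a1*, a close relative 4224 bases away, was at 0.135 to 0.534 FPKM. ND-fed mice had 249, 298 and 286 FPKM, and control mice had 76.3, 118 and 76.6 FPKM. HYA-treated mice had 111, 141 and 172 FPKM, and LA-treated mice had 56.0, 86.1 and 106 FPKM. All high-fat mice were below all ND-fed mice, HYA-treated mice were above all LA-treated mice, and control mouse 2 lay within the HYA range. Control mice had 32.5% of the mean of ND-fed mice (log2 fold change -1.64 ± 0.24 SE, adjusted p = 0.000483), and LA-treated mice had 29.8% (-1.78, adjusted p = 0.000338). HYA-treated mice had 51.0% of the mean of ND-fed mice (-0.99, adjusted p = 0.0182), a call that was lost without ND mouse 2 (0.0646), ND mouse 3 (0.0512), HYA mouse 1 (0.0697) or HYA mouse 2 (0.0509) and without the filter (0.0505). HYA-treated against control mice differed by 0.65 (interval 0.12 to 1.18), which did not pass (adjusted p = 0.177).

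Of the Wnt feedback genes, *Lgr5* fell on the high-fat diet, and no call was made for the others. *Lgr5* (chr10:115450311-115587780) rested on 145 to 296 fragments per mouse. It passed the filter of 1 FPKM through the ND-fed mice, because the 9 mice on a high-fat diet had a mean of 0.931 FPKM. ND-fed mice had 1.64, 1.30 and 1.34 FPKM, and control mice had 0.657, 0.926 and 0.884 FPKM. HYA-treated mice had 1.03, 1.07 and 1.03 FPKM, and LA-treated mice had 0.832, 0.790 and 1.15 FPKM. Every high-fat mouse was below every ND-fed mouse, and every HYA-treated mouse was above every control mouse. Control mice had 57.6% of the mean of ND-fed mice (log2 fold change -0.41 ± 0.09 SE, adjusted p = 0.00648), and the same difference was -0.81 in log2 units of fragments with voom, which adds a smaller offset. LA-treated mice fell by 0.34 against ND-fed mice (adjusted p = 0.0199), a call that was lost without ND mouse 1 (0.0703), LA mouse 1 (0.0715) or LA mouse 2 (0.0743), in TPM (0.119) and in a fit of those 2 groups alone (0.0525). HYA-treated mice differed from control mice by 0.17 (adjusted p = 0.373) and from ND-fed mice by -0.24 (adjusted p = 0.103).

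*Rnf43* (chr11:87662722-87735539) spanned 5.07 to 5.67 FPKM in ND-fed mice, 4.17 to 5.72 in control mice, 4.28 to 6.51 with HYA and 4.31 to 6.72 with LA. The ranges overlapped in every comparison. *Axin2* (chr11:108920349-108950783) spanned 1.98 to 2.12 FPKM in ND-fed mice, 1.75 to 2.53 in control mice, 1.97 to 2.53 with HYA and 2.32 to 2.88 with LA. All LA-treated mice were above all ND-fed mice, but the log2 fold change of 0.24 did not pass the test (adjusted p = 0.107), and passed in TPM (adjusted p = 0.0147). *Tbx3* (chr5:119670669-119684724) had 3.66 to 7.10 FPKM in ND-fed and 4.04 to 5.08 FPKM in control mice, and 4.90 to 7.66 and 4.43 to 5.84 FPKM in HYA-treated and LA-treated mice. The antisense gene *Tbx3os1* (chr5:119570130-119671365) had a mean of 2.23 FPKM and overlaps only the first part of *Tbx3*. Reads in that shared stretch cannot be separated if strand was not used in counting. *Axin2* had adjusted p-values of 0.107 or more and *Rnf43* and *Tbx3* of 0.533 or more over the 6 comparisons.

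**Figure D2:**
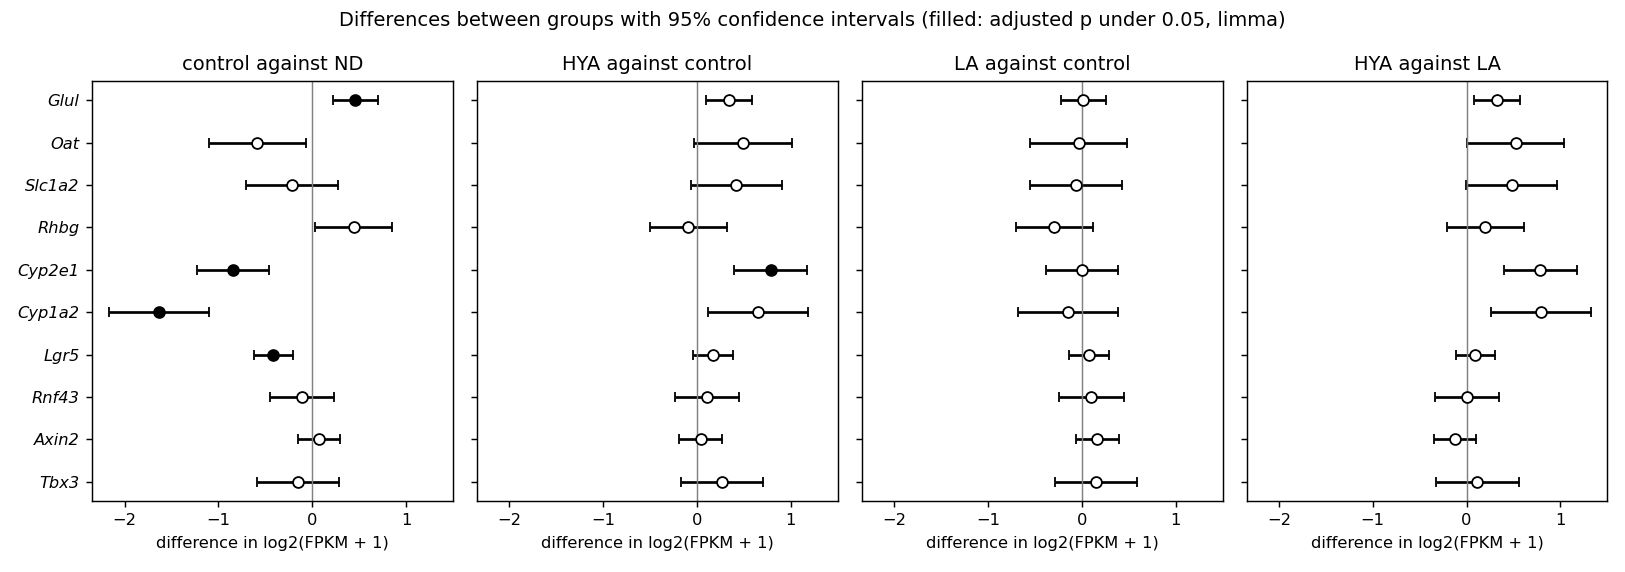
Log2 fold change of the 10 genes with 95% intervals, on log2(FPKM + 1), for the comparisons shown in the panels, and filled points mark an adjusted p under 0.05. In control against ND-fed mice *Glul* lies to the right of 0 at 0.46 and *Cyp2e1*, *Cyp1a2* and *Lgr5* to the left at -0.84, -1.64 and -0.41.

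In control against ND-fed mice, 4 of the 10 genes passed the test, which was 40.0% of the set against 35.3% of all genes tested. Of these, 1 was higher (16.2% of all genes were) and 3 were lower (19.1%), and a share this near the background is no result about the set. *Lgr5*, 1 of the 3 lower, passed the filter of 1 FPKM through the ND-fed mice. The ranges of 5 of the 10 genes did not overlap, against 45.6% of all genes. The median log2 fold change was -0.18 for the 10 genes and -0.04 for all genes. In HYA-treated against control mice 1 gene passed, *Cyp2e1*, which was higher, against 2.8% of all genes in either direction and 1.57% upward. The median log2 fold change was 0.30 for the 10 genes and 0.02 for all genes, and the ranges of 3 did not overlap (21.6% of all genes). Some of the 10 varied together between mice of a group (r = 0.94 for *Cyp2e1* and *Cyp1a2*, 0.92 for *Glul* and *Oat*). The 10 values are therefore not separate observations. In LA-treated against control mice limma called 0 of the 10 genes and 0 of all genes (0%), with 0 of the 10 and 294 of all (2.65%) at an unadjusted p under 0.05, and voom called 0 of all genes. The medians were 0.01 for the 10 genes and 0.00 for all. In HYA-treated against ND-fed mice 2 genes passed, *Glul* (higher) and *Cyp1a2* (lower), against 16.6% of all genes (8.72% higher and 7.85% lower). In LA-treated against ND-fed mice 4 genes passed, *Lgr5* again among them, against 31.1% (14.4% higher and 16.6% lower). With an absolute log2 fold change above 1 required as well, *Cyp1a2* alone passed in control (3.88% of all genes) and in LA-treated mice (3.49%) against ND-fed mice, and no gene of the set did in HYA-treated against control (0.307%) or ND-fed mice (1.89%). After rescaling to TPM, which moved the median of all genes in control against ND-fed mice from -0.04 to 0.17, *Glul* was at 0.70, *Cyp2e1* at -0.61, *Cyp1a2* at -1.41 and *Lgr5* at -0.42, each on its former side of that median and still called. On that scale 3792 genes were higher and 732 lower in control mice, in place of 1795 and 2115 in FPKM, and 97 were higher and 400 lower in HYA-treated against control mice, in place of 174 and 136, so the balance of directions over all genes depends on the scaling. These comparisons share control or ND-fed mice, so their values are not independent of each other.

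HYA and LA were given at the same dose for the same time, and this is the only pair of compounds. No gene of the set passed the test between them (limma, 0 of 10), and 0.487% of all genes did. At an unadjusted p under 0.05 there were 4 of the 10 genes and 17.2% of all. With voom 1 of the 10 passed, beside 166 of all 11083 genes in place of 54 with limma. *Cyp2e1* had a mean of 3087 ± 424 FPKM in HYA-treated and 1810 ± 391 FPKM in LA-treated mice (SD, n = 3). Its log2 fold change of 0.78 had an interval of 0.40 to 1.17 and an adjusted p of 0.0681, and with voom an adjusted p of 0.0437. *Cyp1a2* differed by 0.79 with an interval of 0.26 to 1.33 (adjusted p = 0.127). *Glul* differed by 0.32, with an interval of 0.08 to 0.57 (adjusted p = 0.16), and *Oat* by an interval of 0.00 to 1.04 (adjusted p = 0.287). For these 4 genes the ranges did not overlap, which 25.2% of all genes shared. The intervals reached from -0.12 to 0.30 for *Lgr5*, from -0.35 to 0.10 for *Axin2* and from -0.34 to 0.35 for *Rnf43* and cover 0, and values within them remain compatible with the data. LA-treated and control mice differed by 0.00 in *Cyp2e1* (interval -0.38 to 0.39) and by 0.02 in *Glul* (interval -0.23 to 0.26).

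Ratios within a mouse do not depend on the library scaling. They were chosen after the values had been seen, and 6 ratios in 6 comparisons gave 36 exact two-sided permutation tests, which with 3 mice against 3 cannot go below p = 0.1. The smallest Benjamini-Hochberg adjusted p was 0.212, so none passed, and the ratios are given as descriptions. *Cyp2e1* over *Glul* was 9.74 ± 1.16 in ND-fed mice and 3.94 ± 0.455 in control mice (SD, n = 3). It was 5.39 ± 0.808 with HYA and 3.90 ± 0.260 with LA, where the HYA-treated mice lay above the others on a high-fat diet and below the ND-fed mice. *Cyp1a2* over *Cyp2e1* was 0.0869 in ND-fed mice and 0.0498, 0.0457 and 0.0450 in control, HYA-treated and LA-treated mice. Every mouse on a high-fat diet had a lower value of this ratio than every ND-fed mouse. *Oat* over *Glul* was 1.49 in ND-fed mice, 0.728 in control mice, 0.805 with HYA and 0.704 with LA. *Glul* over *Alb*, the albumin gene that all hepatocytes express, was 0.0113 in ND-fed mice, 0.0221 in control mice, 0.0234 with HYA and 0.0215 with LA. *Alb* is on the list of hepatocyte markers and on the periportal list, so a ratio to it also sets a pericentral against a periportal gene. *Cyp2e1* over *Alb* was 0.110 ± 0.00965 in ND-fed mice and 0.0874 ± 0.0129 in control mice, and the ranges overlapped (log2 difference -0.33, exact permutation p = 0.2), so against *Alb*, which itself fell in control mice, the difference was smaller than the -0.84 in FPKM. It was 0.126 ± 0.0156 with HYA and 0.0846 ± 0.0200 with LA. The HYA-treated mice lay above all control and LA-treated mice and overlapped the ND-fed mice. *Oat* over *Cyp2e1* was 0.155 in ND-fed mice, 0.184 in control mice, 0.150 with HYA and 0.180 with LA, and all HYA-treated mice lay below all control mice.

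**Figure D3:**
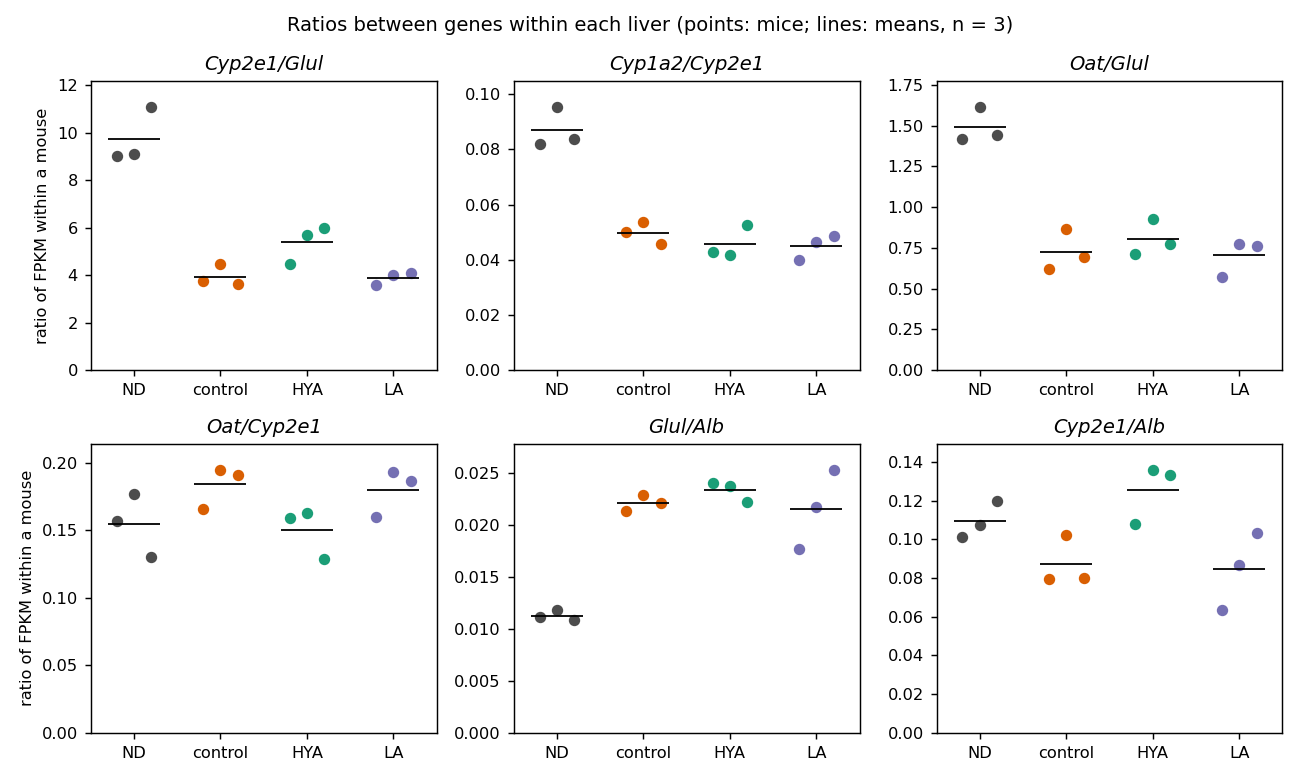
The 6 ratios of FPKM between pairs of genes within each mouse (vertical axis, from 0, with its own scale in each panel), by group, with points for single mice and lines for the mean of 3. *Cyp2e1* over *Glul* is 9.04 to 11.1 in ND-fed mice and 3.60 to 5.99 in the mice on a high-fat diet, whereas the ranges of *Cyp2e1* over *Alb* in ND-fed and control mice overlap.

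Mice of a group differed from each other in several of these genes at once. Among deviations from the group means over the 12 mice, which share the library and its scaling, *Cyp2e1* and *Cyp1a2* had r = 0.94, *Glul* and *Oat* 0.92, *Slc1a2* and *Cyp1a2* 0.88, and *Oat* and *Cyp2e1* 0.86. *Axin2* had r between -0.20 and 0.27 with the other 9 genes. LA mouse 1 was below the mean of its group in 10 of 10 genes and LA mouse 3 above it in 9. The median deviation was -0.25 in LA mouse 1 and 0.28 in LA mouse 3. The 26 other pericentral genes had medians of -0.15 and 0.08 in the same mice. Of these, 23 were below the group mean in LA mouse 1 and 20 above it in LA mouse 3. The 20 genes of the periportal list had medians of -0.04 and -0.07. In control mice 1 and 2 the 10 genes and the periportal list deviated together. The medians were -0.15 for the 10 genes and -0.14 for the periportal list in control mouse 1, and 0.12 and 0.19 in control mouse 2. Of 10 hepatocyte markers, 10 were below the group mean in control mouse 1 and 5 in control mouse 2. The hepatocyte marker sum spanned 31237 to 31831 FPKM in LA-treated and 28202 to 32159 FPKM in control mice.

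By a fixed rule, the 2 other protein-coding genes with the highest r of log2(FPKM + 1) over the 12 mice were named for each gene. For *Glul* they were *Ackr2* (r = 0.93, and 0.81 over the 9 mice on a high-fat diet) and *Stk38l* (0.93 and 0.78). For *Oat* they were *Lhpp* (0.94 and 0.94) and *Gsta3* (0.94 and 0.91), and for *Slc1a2* *Edc3* and *Hpgd* (0.95 each). *Cyp2e1* went with *Gm4756* (0.98) and *Aspscr1* (0.98), and *Cyp1a2* with *Mfsd4b1* (0.99) and *Clcn2* (0.98). *Lgr5* went with *mt-Nd2* (0.96) and *Pgap1* (0.95). For the remaining genes r was lower, with *Tmx2* 0.85 and *Coil* 0.84 for *Rhbg*, *Zc3h8* 0.89 and *Wdr43* 0.88 for *Rnf43*, *Gmpr2* 0.86 and *Akap10* 0.85 for *Axin2*, and *Copz1* 0.88 and *Ndufaf6* 0.83 for *Tbx3*. These are the highest values among all protein-coding genes tested and carry no test.

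Other genes of the pathway were taken from lists. Of all genes tested, 16.2% were higher and 19.1% lower in control against ND-fed mice. In HYA-treated against control mice the shares were 1.57% and 1.23%. A count near these shares is no result about a list. In HYA-treated against control mice 0 of all genes were called in a fit of those 2 groups alone, and 0 without HYA mouse 2. The calls of list genes given below for that comparison are therefore lost in both. Of the Wnt ligands and R-spondins, 4 of 14 were abundant enough to be tested, and *Wls*, needed for Wnt release (log2 fold change 0.37, adjusted p = 0.00140), and *Rspo3*, an R-spondin of central vein endothelium (0.46, adjusted p = 0.0101), rose in control against ND-fed mice. Of 11 receptors tested, *Fzd1* rose (0.44) and *Lgr4* (-0.51), *Fzd7* (-0.53) and *Fzd8* (-0.52) fell, and *Fzd8* rose in HYA-treated against control mice (0.60, adjusted p = 0.0479). Among 14 regulators of β-catenin, *Csnk1e* rose (0.24) and *Axin1* (-0.26) and *Dvl1* (-0.18) fell. Among 12 transcription factors, *Tcf7l1* rose (0.23) and *Tle2* fell (-0.54). Of 4 inhibitors tested, *Dkk3* rose (0.27) and *Notum*, which inactivates Wnt ligands, fell. *Wls* and *Dkk3* passed the filter of 1 FPKM through the mice on a high-fat diet. Their means in ND-fed mice were 0.729 and 0.881 FPKM. *Notum* had 17.6, 17.6 and 17.1 FPKM in ND-fed mice, 7.32, 8.57 and 7.36 in control mice, 10.1, 10.8 and 11.7 with HYA and 7.93, 7.50 and 8.10 FPKM with LA. It differed by -1.08 in control against ND-fed mice (adjusted p = 2.43e-06), rose by 0.44 in HYA-treated against control mice (adjusted p = 0.0168) and by 0.43 against LA-treated mice (adjusted p = 0.0365). The call against LA-treated mice was lost without HYA mouse 2, LA mouse 1 or LA mouse 2, where 0 of all genes were called. Of 11 Wnt target genes, *Tnfrsf19* (1.03), *Ccnd1* (1.62) and *Cd44* (0.58) rose in control mice, and *Notum*, which is on this list too, was the 1 that fell. In TPM, *Dvl1* was at 0.05 in place of -0.18, *Axin1*, *Fzd7* and *Fzd8* did not pass in control against ND-fed mice, and neither did *Fzd8* in HYA-treated against control mice (adjusted p = 0.0641). The counts of higher and lower genes in control mice were then 2 and 1 for receptors, 4 and 0 for regulators of β-catenin and 3 and 1 for transcription factors. Of all 11083 genes tested, 3792 were higher and 732 lower on that scale.

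Of 26 other pericentral genes, 4 rose and 12 fell in control against ND-fed mice (16.2% and 19.1% of all genes did), with a median of -0.31 (-0.04 for all genes). In TPM 8 rose and 8 fell, with a median of -0.08. On that scale 3792 of all 11083 genes were higher and 732 lower, with a median of 0.17. *Cyp2c54* (-4.27), *Cyp2c29* (-2.59) and *Cyp3a11* (-1.84) fell, and *Gstm3* (1.90), *Gstm2* (1.19) and *Cyp2c38* (1.16) rose. In HYA-treated against control mice 6 rose and 1 fell (1.57% and 1.23% of all genes did). Those that rose were led by *Cyp2c54* (2.40, adjusted p = 0.0129), *Cyp2c50* (1.38) and *Cyp2c29* (0.93), and *Gstm3* fell (-1.04). In TPM 4 of the 26 rose and 3 fell in that comparison, where 97 of all 11083 genes were higher and 400 lower. The Cyp2c genes resemble each other in sequence, and reads shared among them could be assigned to either. Of 20 periportal genes, 3 rose and 10 fell in control against ND-fed mice (median -0.49), beside the same 16.2% and 19.1% of all genes. In TPM 4 rose and 9 fell, with a median of -0.26. By p, the leading genes that fell were *Hal* (-1.84), *Pigr* (-0.99) and *Etnppl* (means of 25.5 FPKM in ND-fed and 5.80 FPKM in control mice). In HYA-treated against control mice 1 rose and 2 fell, beside the same 1.57% and 1.23% of all genes. In TPM 1 rose and 3 fell, beside the same 97 higher and 400 lower of all genes. Of 16 genes of glutamine, glutamate and ammonia handling tested, *Gpt2* rose and 7 fell in control mice (16.2% and 19.1% of all genes did). *Nags* (-0.58), *Gpt* (-0.65) and *Slc38a2* (-0.55) were among the 7. None of the 16 passed in HYA-treated against control mice, and in TPM 1 fell. Of 6 genes of the aryl hydrocarbon receptor, the regulator of *Cyp1a2*, *Nqo1* rose (1.04). Of 13 liver transcription factors, *Foxa3* (-1.04), *Hnf4a* (-0.54) and *Nr0b2* (-0.55) fell, as 19.1% of all genes did. In TPM, 4 rose and 4 fell of the genes of ammonia handling, 4 rose of the aryl hydrocarbon receptor genes, and 3 rose and 2 fell of the liver transcription factors, where *Nr0b2* did not pass. These counts stand beside the same 3792 higher and 732 lower of all 11083 genes. In LA-treated against control mice 0 genes of any list passed with limma, as for all genes.

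**Figure D4:**
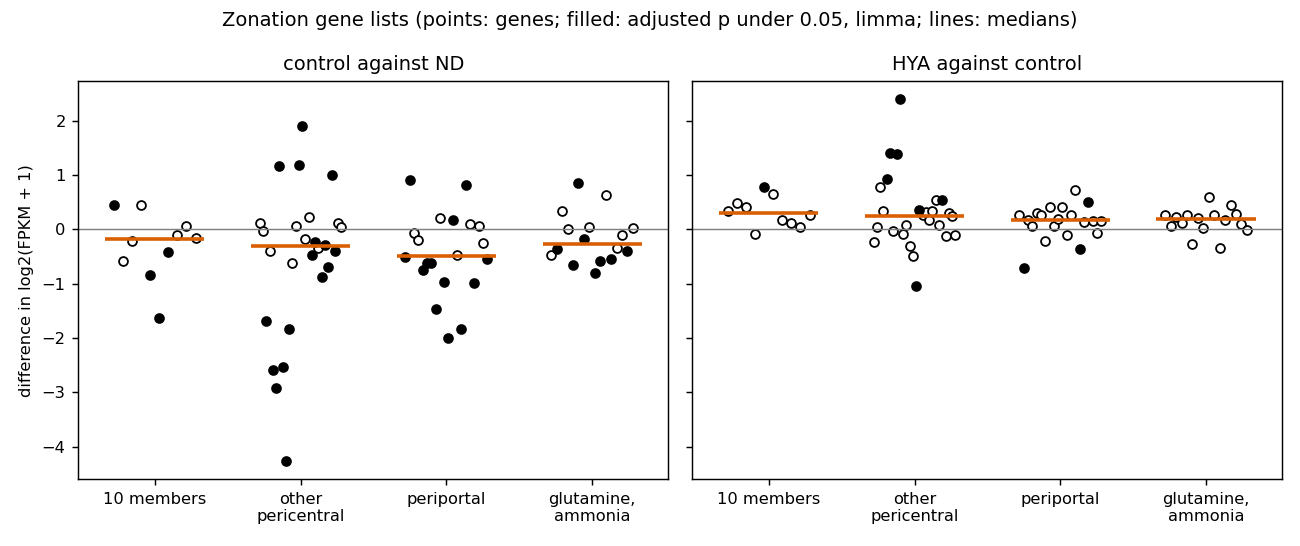
Log2 fold change of single genes (points) of the gene lists named on the axis, beside the 10 pericentral genes, with the list median drawn as a line. In control against ND-fed mice the medians are -0.18 for the 10 genes, -0.31 for the other pericentral and -0.49 for the periportal genes.

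The defining markers of several cell types moved with the diet. Of all genes tested, 16.2% were higher and 19.1% lower in control against ND-fed mice, and 1.23% were lower in HYA-treated against control mice. In a fit of HYA-treated and control mice alone, 0 of all genes were called. The summed level of 10 hepatocyte markers was 43165 to 44564 FPKM in ND-fed mice, 28202 to 32159 in control mice, 36527 to 37612 with HYA and 31237 to 31831 with LA, and 7 of the 10 fell in control against ND-fed mice. The sum of 10 stellate cell markers was 43.8 to 56.6 FPKM in ND-fed mice, 93.5 to 120 in control mice, 75.8 to 88.8 with HYA and 101 to 123 with LA, with 6 of 10 higher in control against ND-fed mice and *Col1a1* and *Col3a1* lower in HYA-treated against control mice. That of 13 endothelial markers was 61.1 to 75.8, 87.7 to 89.7, 82.2 to 90.2 and 84.4 to 88.4 FPKM, with 5 of the 11 tested higher. The sum of 10 macrophage markers was 147 to 240, 205 to 221, 152 to 214 and 210 to 223 FPKM, with 3 higher and 2 lower of 9 tested. Markers of cholangiocytes, lymphocytes and neutrophils summed to at most 8.27, 5.39 and 6.93 FPKM in any mouse. The sum of 5 adipocyte markers was 6.98 to 11.0 FPKM in ND-fed mice, 71.9 to 104 in control mice, 52.8 to 70.4 with HYA and 68.5 to 78.3 with LA. Its only gene abundant enough to be tested was *Cidec*, a lipid droplet protein that fatty hepatocytes also make, which rose by 3.19 in control (adjusted p = 6.32e-07), 2.67 in HYA-treated and 3.01 in LA-treated against ND-fed mice. No listed marker was at 0 in all mice. The part of these shifts in the values of the 10 genes was not tested.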

How the data were processed

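Paired-end sequencing of liver RNA from 12 mice was deposited by the authors as FPKM values, with 1 column per mouse. The processing notes of the submitters name fastp, HISAT2 2.0.5, featureCounts 1.5.0-p3 and GRCm38, and the strand setting and the library scaling are not given in the sources used here. The methods name the unit TPM, but the columns summed to between 342146 and 429286, and TPM would give every mouse the same total. After multiplication by gene length, 100% of values in each column were whole multiples of the smallest step (within 0.01 of a step), which was taken as 1 fragment. Values were tested with limma 3.58.1 in R 4.3.3 (empirical Bayes with trend, two-sided) with a pseudocount of 1, a filter at a mean of 1 FPKM, no block, and Benjamini-Hochberg adjustment over the 11083 genes tested. No member fell below the filter, so the permutation test planned for such genes was not run. Of 54409 identifiers also found in GENCODE M21, 53499 had the same coordinates there (98.33%), and those of the 10 genes are given as in the file.

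The 10 genes, the gene and marker lists and the tests were chosen with earlier results of these data known. The names in the text are the 10 genes, up to 3 genes per list and direction with the lowest p in control against ND or in HYA against control, the 2 genes most like each member, genes overlapping or next to a member, and *Alb*. The lists were Wnt ligands and R-spondins, Wnt receptors, β-catenin regulation, Wnt transcription factors, inhibitors and targets, other pericentral and periportal genes, ammonia handling, aryl hydrocarbon receptor genes, liver transcription factors and 8 cell types. Alternatives were a pseudocount of 0.1, other filters, TPM, median-ratio factors, voom, a replicate block, a fit of 2 groups, a fold threshold and leaving out each mouse. The labels do not say whether same-numbered mice were paired, and these did not deviate together in all pairs. The main fit therefore used no pairing.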

Additional observations from a re-analysis of the deposited data

How the results depend on the processing

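Of 840 values of single genes under the alternatives, 814 kept their side of the threshold, 17 lost it and 9 gained it, and none that passed changed direction. Sign changes of values that passed in neither setting were not counted. With an absolute log2 fold change above 1 required as well, 1 gene passed in control against ND, 0 in HYA against control, 0 in HYA against ND and 1 in LA against ND. In HYA against control, 0 passed without the filter on low values, which tests more genes, and 0 in a fit of the 2 groups. Of all genes then tested, 105 of 26045 and 0 of 11083 passed. In HYA against ND, 1 passed without the filter, as did 1512 of the 26045 genes then tested. In HYA against LA, 1 gene passed with voom and 1 with the replicate block, *Cyp2e1* in both (adjusted p = 0.0437 and 0.0281). Of all 11083 genes, 166 and 258 passed there, in place of 54 in the main fit. With a replicate block 5 genes passed in control against ND and 5 in LA against ND, and *Oat* had an adjusted p of 0.0231 in control against ND. Of all 11083 genes, 3792 and 3328 passed with the block, in place of 3910 and 3445. The cause of these shifts was not tested. Same-numbered mice correlated in their deviations from the group means at 0.22, -0.00 and 0.29 in HYA against LA. Mice with different numbers correlated at -0.29 to 0.08 there. The labels do not say whether the number marks a pairing, and these values cannot decide it. Leaving out 1 mouse at a time gave 4 to 5 genes in control against ND, 0 to 1 in HYA against control, 0 to 0 in LA against control, 0 to 0 in HYA against LA, 1 to 2 in HYA against ND and 3 to 5 in LA against ND. Over all genes the same fits gave, in the same order, 2809 to 3589, 0 to 651, 0 to 0, 0 to 20, 1200 to 1523 and 2554 to 3064. Depth limits *Rhbg* and *Lgr5*, with 18 to 71 and 145 to 296 fragments per mouse.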
